A study of Homo sapiens with 36 samples.

Results

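Collagen transcripts were followed in A549 cells, an established human lung adenocarcinoma line, grown with or without interleukin-1β (IL-1β). The genes are the 6 chains of collagen IV (COL4A1 to COL4A6), the transmembrane collagen COL13A1, and COL5A1, COL6A1 and COL12A1. They are 10 of the 63677 genes listed in each count file, were matched by Ensembl identifier, and were all among the 19180 genes with enough counts to be tested. The 10 genes were selected on their IL-1β response in these same libraries, so their difference between IL-1β and control cells is given below as a description, with its standard error and without a p-value. RNA was sequenced from cells exposed to IL-1β at 1 ng/ml and collected at days 6, 15 and 21, and, once the cytokine had been removed at the end of those 21 days, again 6, 15 and 30 days later. Each of these 6 collections had its own untreated control, grown in the same medium and collected beside it, and each of the 12 groups had 3 libraries, named here replicates A, B and C. All groups share the parental line, with no transgene or deletion, and the labels call the replicates biological without saying whether they came from separate cultures. The p-values below measure the spread between these libraries, which may be partly technical.

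Collagen IV is the network-forming collagen of basement membranes, the sheets on which epithelia rest. Its chains combine in fixed trimers, α1 with α2 in nearly all basement membranes, α3 with α4 and α5 in places that include the lung alveolus and the kidney glomerulus, and α5 with α6 in a few other epithelia. The genes lie in head-to-head pairs, COL4A1 beside COL4A2, COL4A3 beside COL4A4 and COL4A5 beside COL4A6, and the partners of a pair are read in opposite directions from a shared start region. COL13A1 encodes a collagen that spans the cell membrane and has no partner of this kind. COL5A1 encodes a chain of the fibrils' regulatory collagen V, COL6A1 a chain of the beaded microfibrils of collagen VI, and COL12A1 the chain of collagen XII, which binds to the surface of fibrils.

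In the GRCh37 annotation, COL4A1 (chr13:110801310-110959504, minus strand) and COL4A2 (chr13:110958159-111165556, plus strand) had 126 bases between the starts of their canonical transcripts. The corresponding stretch was 418 bases between COL4A4 (chr2:227867430-228029169, minus strand) and COL4A3 (chr2:228029340-228179508, plus strand). It was 1415 bases between COL4A6 (chrX:107398837-107682727, minus strand) and COL4A5 (chrX:107683068-107940775, plus strand). COL13A1 lies at chr10:71561636-71724031 on the plus strand. The other members were COL5A1 (chr9:137533649-137736689, plus strand), COL6A1 (chr21:47401684-47424964, plus strand) and COL12A1 (chr6:75794042-75915983, minus strand). No member shared exonic bases with another gene on its own strand. On the other strand, 6.82% of the exonic bases of COL4A3 overlapped the non-coding gene MFF-DT, which held 3 to 22 counts per library in control and 4 to 22 in IL-1β cells. The library kit keeps strand, but the strand setting of the counting is not given in the sources used here, so reads of such overlaps may be mixed.

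The start regions are printed because the paired genes are read from them and the pairs differed in their response. All are GRCh37, plus strand, 5′ to 3′. Capitals mark the CCAAT box (CCAAT), the GC box (GGGCGG) and, in COL13A1 only, the TATA box (TATAAA), each on either strand. The first is the whole stretch between COL4A1 and COL4A2 (chr13:110959505-110959630), the second the 170 bases between the outermost annotated starts of COL4A4 and COL4A3 (chr2:228029170-228029339), the third the 300 bases before COL4A5 on the side of COL4A6 (chrX:107682768-107683067) and the last the 300 bases before COL13A1 (chr10:71561336-71561635).
COL4A1-COL4A2: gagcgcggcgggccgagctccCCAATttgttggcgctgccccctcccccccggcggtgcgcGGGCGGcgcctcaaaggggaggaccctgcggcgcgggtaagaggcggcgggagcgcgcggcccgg
COL4A4-COL4A3: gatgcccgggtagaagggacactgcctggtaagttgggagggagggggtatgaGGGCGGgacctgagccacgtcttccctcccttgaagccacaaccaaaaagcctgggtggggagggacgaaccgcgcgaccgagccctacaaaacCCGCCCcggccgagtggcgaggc
COL4A6-COL4A5: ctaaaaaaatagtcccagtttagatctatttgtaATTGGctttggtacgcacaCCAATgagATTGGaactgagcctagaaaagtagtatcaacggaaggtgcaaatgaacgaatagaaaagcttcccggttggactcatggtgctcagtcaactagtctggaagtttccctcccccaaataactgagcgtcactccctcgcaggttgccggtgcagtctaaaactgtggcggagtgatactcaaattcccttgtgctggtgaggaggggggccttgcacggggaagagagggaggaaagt
COL13A1: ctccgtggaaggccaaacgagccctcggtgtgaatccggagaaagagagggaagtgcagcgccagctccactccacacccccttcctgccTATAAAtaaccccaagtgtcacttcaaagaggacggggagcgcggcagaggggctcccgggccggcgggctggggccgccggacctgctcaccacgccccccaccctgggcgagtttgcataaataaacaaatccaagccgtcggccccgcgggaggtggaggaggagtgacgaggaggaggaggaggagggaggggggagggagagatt

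The 4 windows differed in base composition and in these letters. GC content was 80.2% between COL4A1 and COL4A2, 65.9% between COL4A4 and COL4A3, 48.3% before COL4A5 and 64.7% before COL13A1. The COL4A1-COL4A2 stretch held 1 CCAAT and 1 GC box, the COL4A4-COL4A3 stretch 2 GC boxes and no CCAAT, and the COL4A6-COL4A5 stretch 3 CCAAT boxes and no GC box. The COL13A1 window held 1 TATA box and neither of the others. The E-box CAGGTG, the AP-1 motif TGANTCA with C or G at the open base and the NF-κB consensus were found in none of the 4 windows. For comparison, among 35116 RefSeq promoter windows of 300 bases (250 before to 50 after a start, GRCh38.p14), 34.6% held the CCAAT box, 45% the GC box, 11.5% the TATA box, 20.6% the E-box, 4.95% the AP-1 motif and 11.3% the NF-κB consensus. The printed windows were bounded differently, and 2 of them are shorter (126 and 170 bases). A shorter window holds fewer matches by chance, so their counts are not directly comparable with these rates or with each other. RefSeq windows were found for 9 of the 10 members. Those of COL4A3 and COL4A4 held 1 E-box each and that of COL4A4 1 NF-κB match. A match describes letters in a window and not the binding of a factor.

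Counts on genes came to between 9116032 and 23570026 per library. In 11 of the 36 libraries, 6 control and 5 IL-1β, mitochondrial genes took 11.8% to 24.6% of these counts, against 5.61% to 7.75% in the other 25, and these 11 are called libraries of high mitochondrial share. They are named beside the results they touch. The labels give no batch. Among 5 epithelial markers, KRT8, KRT18 and CDH1 were abundant (CDH1 27.5 to 319 CPM), whereas EPCAM did not exceed 1.63 CPM and KRT19 0.195 CPM in any library. With IL-1β, 3 of the 4 epithelial markers tested fell past both thresholds at days 6, 15 and 21, 2 (KRT18 and CDH1) at day 6 after withdrawal and 0 later, and the part of this change in the collagen values was not tested. The 7 fibroblast markers summed to 1.03 to 4.20 CPM in control and 1.36 to 3.42 CPM in IL-1β libraries, most of it COL1A1, with COL1A2, COL3A1, LUM and THY1 at or near 0. The 5 matched leukocyte and endothelial markers summed to 0.386 to 1.08 and 0.364 to 1.74 CPM. CPM are counts scaled to a common library size by TMM.

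In untreated cells the 2 major chains of collagen IV stood far above the other members. Per kilobase of exon, the median over the 18 control libraries was 31.0 CPM per kb for COL4A2 (range 11.2 to 40.6) and 28.3 for COL4A1 (19.6 to 39.7). COL5A1 followed at 10.6, COL12A1 at 2.65 and COL6A1 at 1.91 CPM per kb. The minor chains of collagen IV were lower, COL4A4 at 0.894, COL4A3 at 0.570 and COL4A5 at 0.450 CPM per kb. COL13A1 had a median of 0.189 and COL4A6 of 0.0560 CPM per kb, with 0 to 24 counts per control library for COL4A6. The order held in all 18 control libraries for COL4A1 over COL5A1, COL5A1 over COL12A1 and COL4A4 over COL4A3. It held in 17 for COL4A5 over COL13A1 and for COL13A1 over COL4A6, in 16 for COL6A1 over COL4A4 and in 14 for COL12A1 over COL6A1. COL4A2 over COL4A1 and COL4A3 over COL4A5 held in only 12 of 18, and these differences were not tested. The log2 ratio of COL4A1 to COL4A2 per kb (pseudocount 0.01) was -0.28 to 0.006 in the 12 control libraries of low mitochondrial share. It was -0.11 to 1.10 in the 6 of high share. Exon lengths of 19.3 kb for COL4A2 and 14.7 kb for COL4A1 enter this order.

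Whether the members moved in culture without IL-1β was tested on the control libraries. These libraries also enter the contrasts on which the genes were chosen, so the test is not independent of that choice. Between the untreated cells collected last (day 30 after withdrawal) and first (day 6), 0 of the 10 members passed both thresholds, an adjusted p under 0.05 and a fold change over 2, by edgeR's quasi-likelihood test, where 0.0104% of all genes tested did. At an unadjusted p under 0.05 there were 3 members, where 1.94% of all genes were, COL4A6 with a log2 fold change of -1.93 ± 0.64 (SE), COL4A5 with -0.75 ± 0.31 and COL12A1 with -0.54 ± 0.19. All 10 had an adjusted p of 1, and DESeq2's Wald test also passed 0, with 3 at an unadjusted p under 0.05. The test of any difference among the 6 control groups passed 0 members against 0.00521% of all genes, with adjusted p-values from 0.982 to 0.989. At an unadjusted p under 0.05 in that test were 4 members, COL13A1, COL4A6, COL4A5 and COL4A4, and 3.62% of all genes. The control mean of COL13A1 was 1.55 ± 0.734 CPM (SD, n = 3) at day 6, 4.68 ± 1.15 CPM at day 21 and 1.49 ± 0.790 CPM at day 30 after withdrawal. The other members had smaller log2 differences between the last and the first control, from -0.30 for COL4A2 to 0.14 for COL4A3.

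With IL-1β, the 3 head-to-head pairs went 3 ways. COL4A3 and COL4A4 were lower in every IL-1β library than in every control library of the same collection at all 6 time points, COL4A5 was higher in the same sense at all 6 and COL4A6 at days 6, 15 and 21, and COL4A1 and COL4A2 stayed within a log2 difference of 0.59 of their controls. COL13A1 was higher throughout. Past both thresholds were 4 of the 10 members at day 6 (2.77% of all genes tested), 5 at day 15 (4.24%) and 5 at day 21 (4.26%). After withdrawal there were 4 at day 6 (1.8% of all genes), 1 at day 15 (0.954%) and 1 at day 30 (0.897%). COL4A3, COL4A4, COL4A6 and COL13A1 were the 4 at day 6, and COL4A5 joined them at days 15 and 21. At day 6 after withdrawal they were COL4A3, COL4A4, COL4A5 and COL13A1, at day 15 COL4A5, and at day 30 COL13A1. Since this contrast chose the members, these counts carry no support. Same-letter libraries deviated together (Pearson's r over 0.1 in all 3 pairs) at day 30 after withdrawal and at day 21. With the letter as a block 4 members passed at day 30 (COL13A1, COL4A3, COL4A4 and COL6A1) and 5 at day 21. Of all 19180 genes tested, 218 and 889 did, against 172 and 817 without the block. Without replicate A the counts at the 6 time points in order were 1, 2, 0, 0, 0 and 0. Without replicate B they were 2, 4, 4, 2, 0 and 0, and without replicate C 3, 4, 4, 4, 2 and 2. Of all genes, 531, 814, 817, 346, 183 and 172 passed in the main fit. Without replicate A 176, 284, 299, 29, 15 and 6 of 19205 did. Without replicate B it was 367, 890, 601, 167, 24 and 25 of 19474. Without replicate C it was 405, 519, 634, 290, 154 and 165 of 18896. In bulk RNA, fewer cells that express a gene and less RNA per cell cannot be told apart.

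**Figure D1:**
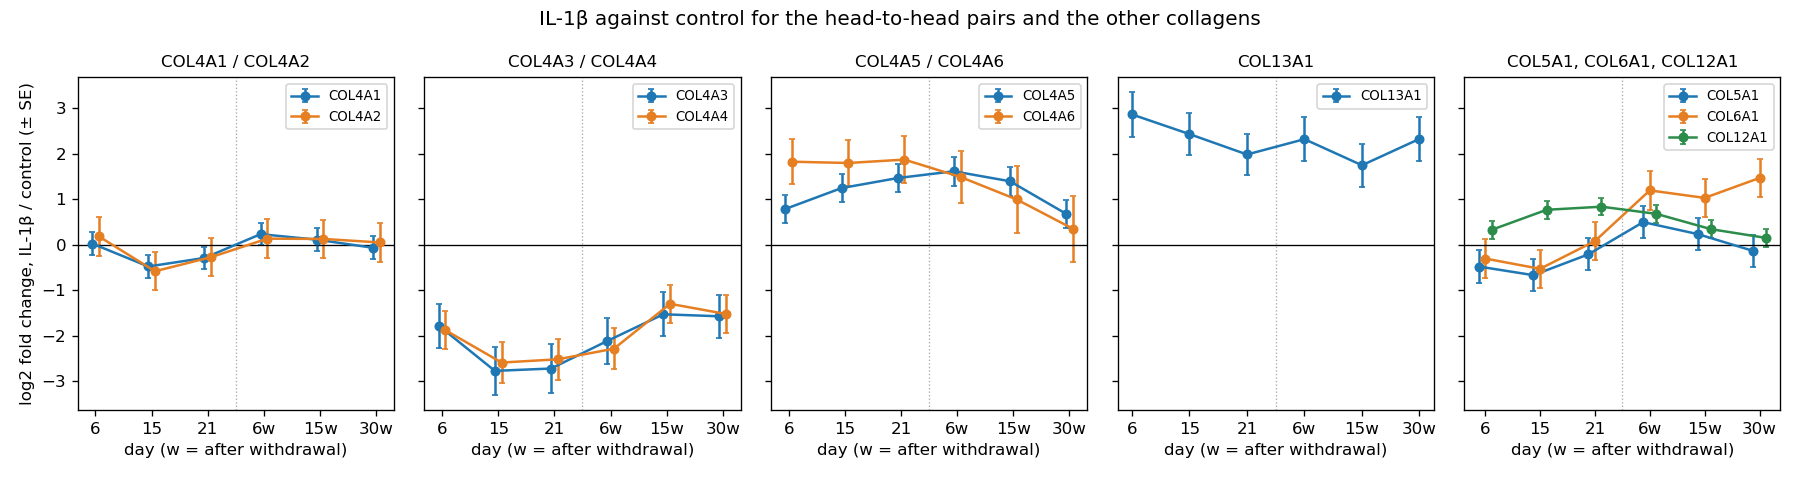
The log2 fold change of IL-1β against control cells (y axis, error bars ± SE of the edgeR fit) at each collection (x axis, day of exposure, then day after withdrawal marked w; the dotted line is the withdrawal), for each head-to-head pair, COL13A1 and the other 3 genes. The COL4A1 and COL4A2 points lie between -0.59 and 0.23, those of COL4A3 and COL4A4 between -2.78 and -1.30, those of COL4A5 and COL4A6 between 0.35 and 1.87, and those of COL13A1 between 1.74 and 2.86.

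COL4A1 and COL4A2, the chains of the common basement membrane network, differed little between IL-1β and control cells. At day 21 COL4A1 measured 467, 407 and 424 CPM in control replicates A, B and C and 381, 321 and 356 CPM in the IL-1β replicates. COL4A2 measured 671, 548 and 624 CPM against 542, 463 and 517 CPM at the same collection. The groups of both genes were apart at day 21, with every IL-1β library the lower. The log2 fold change was -0.29 ± 0.25 (SE) for COL4A1 and -0.28 ± 0.42 for COL4A2 at day 21, and -0.48 ± 0.25 and -0.59 ± 0.42 at day 15, where both were furthest from 0. At day 30 after withdrawal COL4A1 measured 569, 351 and 349.6 CPM in control and 429, 414 and 368 CPM in IL-1β libraries, and COL4A2 783, 215 and 559 CPM against 599, 518 and 493 CPM. These groups overlapped, with log2 fold changes of -0.07 ± 0.25 and 0.05 ± 0.42. The partners' log2 fold changes differed by 0.02 to 0.16 over the 6 collections, less than the SE of either gene. With both genes near their controls, such small differences do not show whether the partners move together.

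The libraries of high mitochondrial share held less COL4A2. Among the controls it ranged from 215 to 496 CPM in the 6 such libraries and from 548 to 783 CPM in the other 12, without overlap, and COL4A1 from 287 to 439 and from 350 to 582 CPM, with overlap. On the log2 scale, the ratio of COL4A1 to COL4A2 per kb (pseudocount 0.01) had a median of -0.11 in the 25 libraries of low share (range -0.44 to 0.16) and of 0.52 in the 11 of high share (-0.13 to 1.10). The highest value, 1.10, was that of control replicate B at day 30 after withdrawal. Without these 11 libraries the log2 fold change at day 15 was -0.30 for COL4A1 and -0.23 for COL4A2. The corresponding medians of the COL4A3 to COL4A4 ratio were -0.51 and -0.51. For COL4A5 to COL4A6 they were 2.53 (range 1.66 to 4.81) and 3.60 (1.80 to 5.25), with ranges that overlap. This was a larger shift in the median than that of COL4A1 to COL4A2, but most high-share libraries were collected after withdrawal. In low-share libraries the COL4A5 to COL4A6 ratio was 1.66 to 2.72 during exposure and 2.49 to 4.81 after withdrawal. The high-share libraries of the exposure had 1.80, 2.45 and 3.60. The values 5.25 (control replicate A, day 6 after withdrawal) and 4.43 (control replicate B, day 30) rest on 0 COL4A6 counts and on the pseudocount. The part of RNA quality and of collection time in these ratios was not tested.

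**Figure D2:**
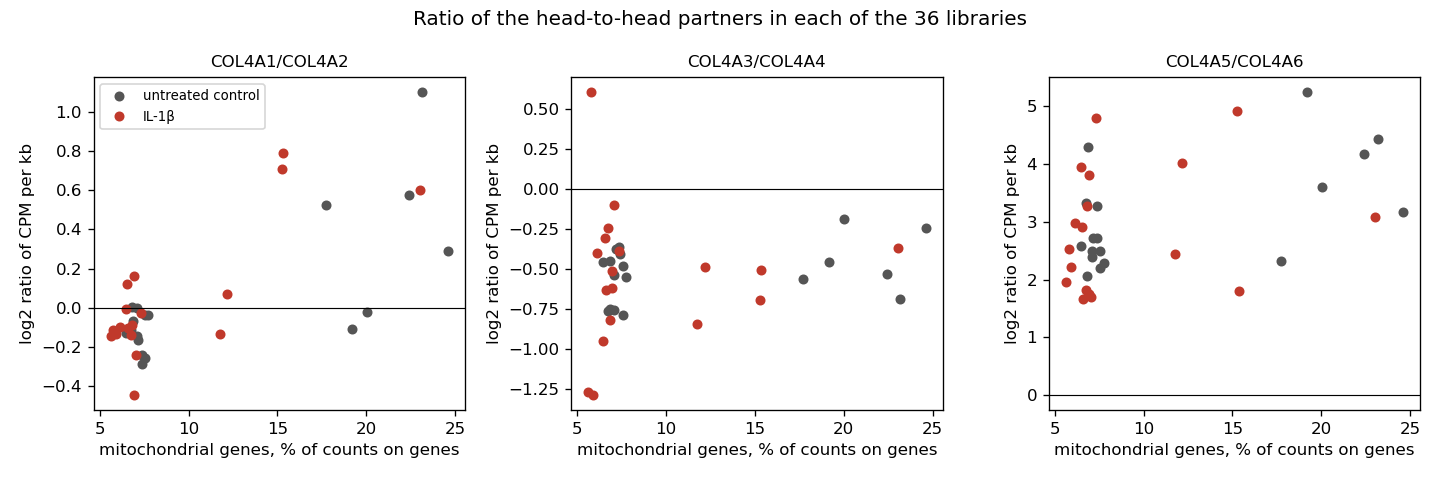
The log2 ratio of the partners' CPM per kb (y axis) against the share of counts on mitochondrial genes in percent (x axis) for each of the 36 libraries (points; grey control, red IL-1β), 1 panel per head-to-head pair. COL4A1 to COL4A2 has a median of -0.11 in the low-share and 0.52 in the high-share libraries, COL4A3 to COL4A4 of -0.51 in both, and COL4A5 to COL4A6 of 2.53 and 3.60 with overlapping ranges. In low-share libraries the COL4A5 to COL4A6 ratio was 1.66 to 2.72 during exposure and 2.49 to 4.81 after withdrawal, when most high-share libraries were collected. A pseudocount of 0.01 CPM per kb was added before each ratio.

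COL4A3 and COL4A4, the partners that join COL4A5 in the alveolar type of network, were lower with IL-1β at every collection. At day 6 COL4A3 measured 12.1, 11.4 and 8.39 CPM in control replicates A, B and C and 3.38, 4.31 and 1.66 CPM in the IL-1β replicates. By day 21 it was at 5.19, 3.98 and 5.89 CPM against 0.923, 0.898 and 0.492 CPM. The highest IL-1β library was below the lowest control library at both times, and the day 21 values of the IL-1β cells rested on 12 to 17 counts per library. COL4A3 had a log2 fold change of -1.78 ± 0.48 (SE) at day 6, -2.78 ± 0.53 at day 15 and -2.73 ± 0.54 at day 21, the last a 6.61-fold lower level. COL4A4 measured 16.3, 12.5 and 14.1 CPM in control and 4.69, 4.46 and 2.53 CPM in IL-1β libraries at day 6. At day 21 COL4A4 stood at 6.89, 5.67 and 7.41 CPM against 0.543, 1.65 and 1.31 CPM. Again no IL-1β library reached a control library, and the log2 fold changes were -1.88 ± 0.42, -2.59 ± 0.45 and -2.52 ± 0.45 at days 6, 15 and 21. The 2 genes' log2 fold changes were 0.05 to 0.23 apart.

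After withdrawal both genes remained below their controls. In the main fit they did so by less than at day 21, a difference that was not tested. At day 6 after withdrawal the log2 fold changes were -2.12 ± 0.51 for COL4A3 and -2.29 ± 0.45 for COL4A4. Without libraries of high mitochondrial share, which left a single control library, they were -2.58 and -2.77. At day 21 that fit gave -2.86 and -2.76. At day 6 after withdrawal COL4A3 measured 3.87, 4.15 and 9.62 CPM in control and 0.874, 0.812 and 2.32 CPM in formerly exposed cells, and at day 15 it measured 6.75, 7.24 and 8.13 CPM against 2.18, 1.82 and 3.54 CPM. At day 30 the values were 9.52, 6.43 and 18.7 CPM against 2.31, 3.58 and 5.75 CPM. Its log2 fold change of -1.58 ± 0.47 at day 30 was 57.9% of that at day 21. COL4A4 measured 5.16, 5.96 and 13.5 CPM against 1.15, 1.04 and 2.78 CPM at day 6 after withdrawal and 11.1, 8.26 and 11.4 against 4.17, 2.91 and 5.31 at day 15. For day 30 they were 12.6, 10.0 and 23.9 CPM in control and 4.00, 4.88 and 7.30 CPM in formerly exposed cells, a log2 fold change of -1.53 ± 0.41 or 60.5% of the day 21 value. The groups did not overlap at any of these times. Control replicate C at day 30 was the highest library of both genes, and control replicate C at day 15 of exposure stood above replicates A and B for both (COL4A3 13.1 against 4.61 and 4.17 CPM, COL4A4 16.2 against 7.57 and 6.88 CPM). Without the libraries of high mitochondrial share, the day 30 log2 fold changes were -1.76 for COL4A3 and -1.66 for COL4A4. With them, neither passed both thresholds at day 30, and without them COL4A4 passed and COL4A3 did not.

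**Figure D3:**
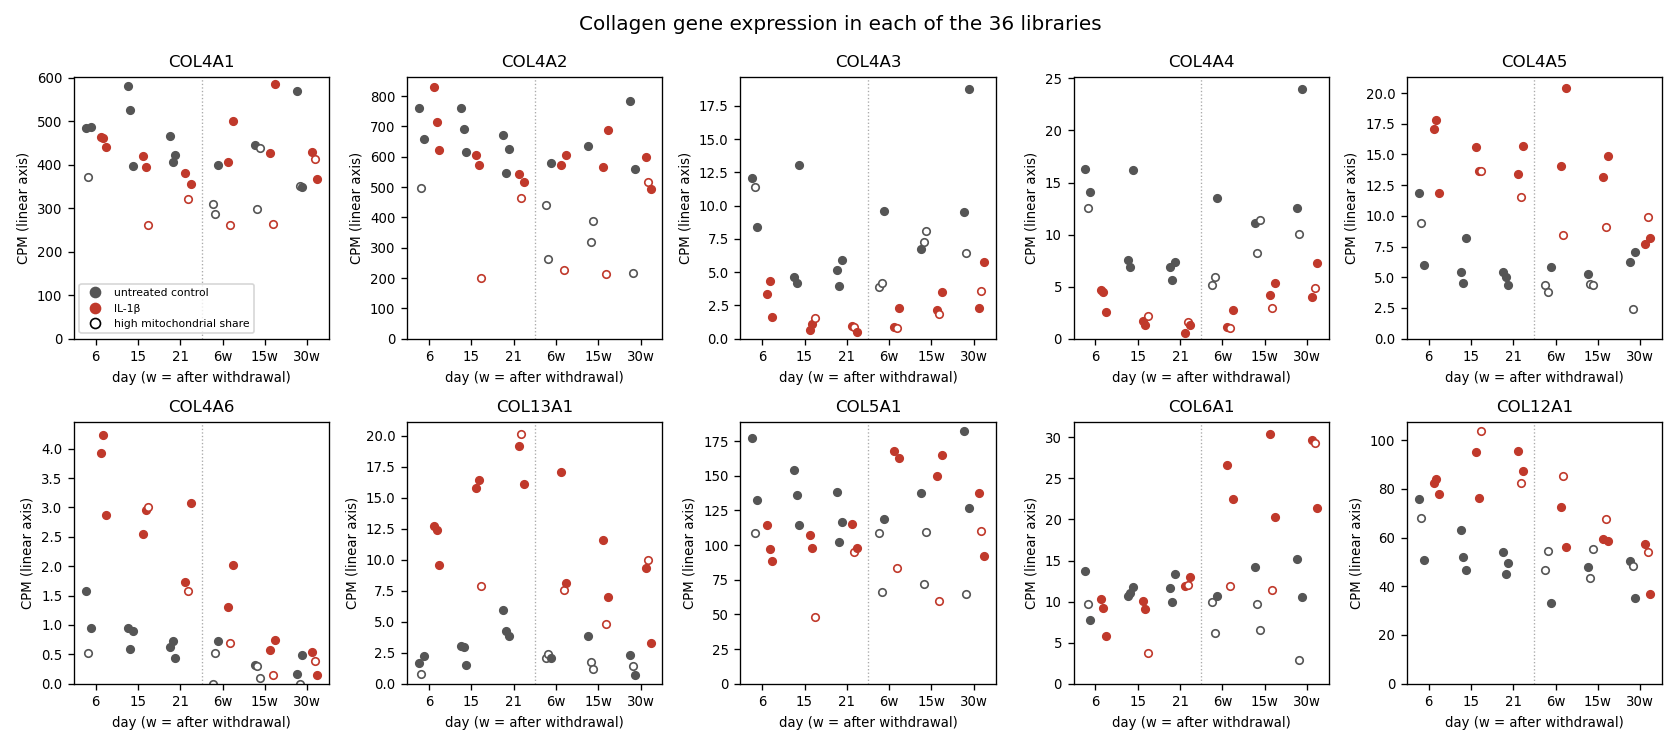
CPM of the 10 genes (y axis, linear, from 0) in each of the 36 libraries by collection (x axis, day of exposure, then day after withdrawal marked w), grey for untreated control and red for IL-1β, with open points for libraries of high mitochondrial share. COL4A3 and COL4A4 lie below and COL4A5 and COL13A1 above their controls at all 6 collections, and COL6A1 lies above its controls at days 6 and 30 after withdrawal.

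COL4A5 and COL4A6, partners on the X chromosome, were higher with IL-1β. COL4A5 measured 11.8, 9.39 and 5.97 CPM in control replicates A, B and C at day 6 and 17.1, 17.8 and 11.9 CPM in the IL-1β replicates. At day 21 COL4A5 measured 5.41, 5.01 and 4.34 CPM against 13.4, 11.5 and 15.7 CPM. The groups touched at day 6, where the lowest IL-1β library (replicate C) was just above the highest control library (replicate A), and were well apart at day 21. COL4A5 had a log2 fold change of 0.78 ± 0.31 (SE) at day 6, 1.24 ± 0.31 at day 15 and 1.46 ± 0.31 at day 21. It was 1.61 ± 0.32 at day 6 after withdrawal, with 4.38, 3.80 and 5.80 CPM in control and 14.1, 8.46 and 20.4 CPM in formerly exposed cells. On day 15 of withdrawal the libraries stood at 5.26, 4.49 and 4.37 CPM and 13.1, 9.09 and 14.9 CPM, a log2 fold change of 1.39 ± 0.32. By day 30 they were at 6.24, 2.44 and 7.08 CPM and 7.74, 9.88 and 8.23 CPM. The day 30 log2 fold change of 0.68 ± 0.31, 46.3% of the day 21 value, rested on replicate B, where the control library of high mitochondrial share was the lowest, and it was 0.26 without that replicate and 0.27 without the libraries of high share.

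COL4A6 had the fewest reads of the members, with 0 to 75 counts per library, so single libraries weigh heavily. It measured 1.57, 0.522 and 0.945 CPM in the controls and 3.93, 4.24 and 2.87 CPM with IL-1β at day 6. At day 15 COL4A6 stood at 0.946, 0.596 and 0.890 CPM against 2.55, 2.96 and 3.00 CPM, and at day 21 at 0.627, 0.724 and 0.438 against 1.74, 1.57 and 3.08 CPM. The groups were apart at these 3 times, with log2 fold changes of 1.82 ± 0.49 (SE), 1.79 ± 0.50 and 1.87 ± 0.52. At day 6 after withdrawal the libraries were at 0, 0.518 and 0.730 CPM and 1.31, 0.696 and 2.03 CPM and overlapped. By day 30 after withdrawal they had 0.161, 0 and 0.492 CPM and 0.543, 0.390 and 0.140 CPM. COL4A6 had log2 fold changes of 1.49 ± 0.57, 0.99 ± 0.73 and 0.35 ± 0.73 at days 6, 15 and 30 after withdrawal, and at day 30 it lay between -0.35 without replicate A and 1.98 without replicate C, so its direction at that time was not detectable at this depth. COL4A5 and COL4A6 differed in log2 fold change by 0.13 to 1.04, against at most 0.16 and 0.23 in the other pairs. This comparison was not tested, and the SE of COL4A6 alone was 0.49 to 0.73.

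COL13A1, the gene without a head-to-head partner, had the largest log2 fold change among the members that were higher with IL-1β at days 6, 15 and 21, and at day 30 after withdrawal it was the highest above its control. At day 6 COL13A1 measured 1.63, 0.783 and 2.25 CPM in control replicates A, B and C and 12.8, 12.4 and 9.60 CPM in the IL-1β replicates. At day 15 COL13A1 was at 3.08, 2.93 and 1.48 CPM against 15.8, 16.4 and 7.86 CPM, and at day 21 at 5.98, 4.22 and 3.82 against 19.2, 20.1 and 16.1 CPM. All IL-1β libraries were above all control libraries at each time, while both groups had their highest values at day 21. COL13A1 had a log2 fold change of 2.86 ± 0.49 (SE) at day 6, a 7.27-fold level, then 2.43 ± 0.46 and 1.98 ± 0.45 at days 15 and 21. Once IL-1β was removed, COL13A1 measured 2.06, 2.42 and 2.10 CPM in control and 17.1, 7.54 and 8.11 CPM in formerly exposed cells at day 6. At day 15 after withdrawal the libraries stood at 3.83, 1.73 and 1.22 CPM and 11.6, 4.80 and 7.03 CPM. On day 30 they were at 2.31, 1.42 and 0.738 CPM and 9.30, 10.0 and 3.27 CPM. The log2 fold changes were 2.32 ± 0.48, 1.74 ± 0.47 and 2.32 ± 0.49, the last a 5.01-fold level and 117% of the day 21 value. Leaving out the high-share libraries gave 2.60, 1.28 and 2.02, with a single control library left at days 6 and 15. In that fit COL13A1 was not past both thresholds at day 30 after withdrawal, and COL4A4 was the 1 member that was.

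Set side by side, the log2 difference 30 days after withdrawal as a share of that at day 21 was 117% for COL13A1, 57.9% for COL4A3, 60.5% for COL4A4 and 46.3% for COL4A5. The level of COL13A1 itself fell, from 18.5 ± 2.11 CPM (SD, n = 3) at day 21 to 7.53 ± 3.70 CPM at day 30. Its control fell as well, from 4.68 ± 1.15 to 1.49 ± 0.790 CPM. For COL4A5 the fit without high-share libraries gave 0.27 at day 30 against 1.59 at day 21. No share is given for COL4A6, whose direction at day 30 was not detectable, or for COL4A1 and COL4A2, whose log2 differences at day 21 were -0.29 and -0.28. These shares are ratios of fitted values, and the difference between the 2 times was not tested.

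The minor chains shifted within a collagen IV pool made up almost wholly of the major chains. Of the CPM per kb of the 6 collagen IV genes together, COL4A1 and COL4A2 made up 92.6% to 98.1% in the 36 libraries. COL4A3 and COL4A4 together made up 3.16% ± 0.506 (SD, n = 3) in control and 0.812% ± 0.243 in IL-1β libraries at day 6, and 1.55% ± 0.192 and 0.318% ± 0.119 at day 21. COL4A5 and COL4A6 together made up 1.32% ± 0.398 and 2.40% ± 0.351 at day 6, and 0.765% ± 0.106 and 2.64% ± 0.424 at day 21. In control cells the COL4A3 and COL4A4 share was thus the larger of the 2 at both times, and in IL-1β cells the COL4A5 and COL4A6 share. At day 30 after withdrawal the shares of COL4A3 and COL4A4 were 4.07% ± 2.01 in control and 1.39% ± 0.621 in formerly exposed cells, and those of COL4A5 and COL4A6 0.788% ± 0.308 and 1.35% ± 0.195. In the formerly exposed cells the 2 shares were then level within their spread.

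**Figure D4:**
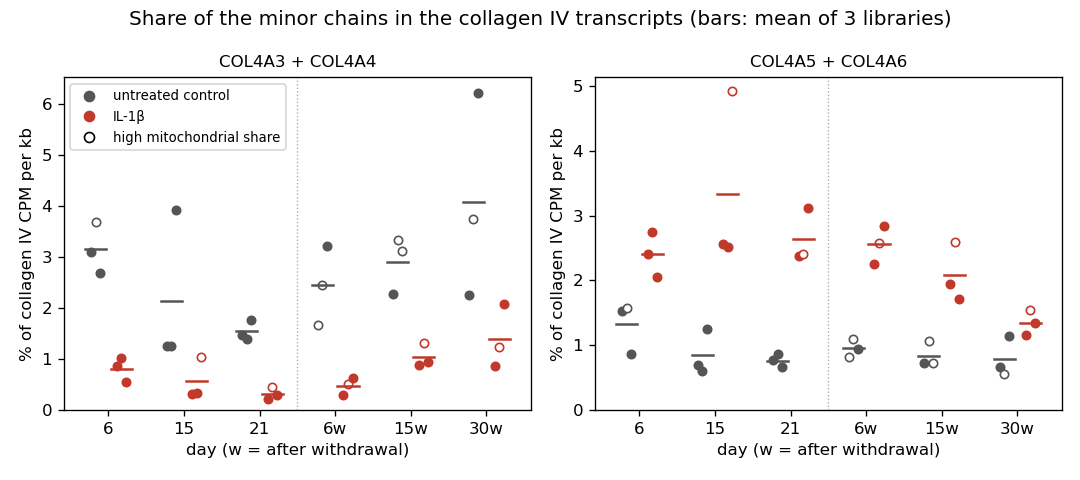
The share of COL4A3 plus COL4A4 (left) and of COL4A5 plus COL4A6 (right) in the summed CPM per kb of the 6 collagen IV genes, in percent (y axis), by collection (x axis, day of exposure, then day after withdrawal marked w). Points are libraries, bars the mean of 3, grey control and red IL-1β, open points libraries of high mitochondrial share; at day 21 the left share is 1.55% in control and 0.318% in IL-1β cells, and the right share 0.765% and 2.64%.

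Of the other collagens, COL6A1 and COL12A1 differed from control at different times and COL5A1 overlapped its control at 5 of the 6 collections. COL6A1 measured 10.7, 11.1 and 11.7 CPM in control replicates A, B and C and 10.1, 9.06 and 3.72 CPM in IL-1β replicates at day 15, and 11.7, 9.95 and 13.3 against 11.9, 12.1 and 13.0 CPM at day 21. At day 6 after withdrawal COL6A1 stood at 9.93, 6.22 and 10.7 CPM against 26.7, 11.9 and 22.5 CPM, and at day 30 at 15.2, 2.83 and 10.5 against 29.7, 29.3 and 21.4 CPM. The groups were apart with IL-1β lower at day 15, overlapped at day 21 and were apart with the formerly exposed cells higher at days 6 and 30 after withdrawal. COL6A1 had a log2 fold change of -0.31 ± 0.42 (SE), -0.53 ± 0.42 and 0.08 ± 0.41 at days 6, 15 and 21, and 1.19 ± 0.42, 1.03 ± 0.42 and 1.46 ± 0.42 at days 6, 15 and 30 after withdrawal. The day 30 value was 0.99 once the high-share libraries were left out, among them control replicate B, which was the lowest of all libraries. COL12A1 ranged from 45.1 to 75.8 CPM in the controls of days 6 to 21 and from 76.1 to 104 CPM with IL-1β. These ranges did not overlap, and the log2 fold change of COL12A1 was 0.33 ± 0.19, 0.77 ± 0.19 and 0.83 ± 0.19. After withdrawal it was 0.68 ± 0.19, 0.34 ± 0.19 and 0.15 ± 0.19 at days 6, 15 and 30, the last 17.6% of the day 21 value. COL5A1 ranged from 65.0 to 182 CPM in control and from 48.1 to 168 CPM in IL-1β libraries. Its log2 fold change lay between -0.67 at day 15 and 0.49 at day 6 after withdrawal, and the groups were apart at day 15 only.

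How the members varied within groups was described by the deviations of each library from its group mean on the log2 CPM scale. Over the 36 libraries, Pearson's r was 0.86 between COL4A1 and COL4A2, 0.79 between COL4A3 and COL4A4 and 0.62 between COL4A5 and COL4A6. In the 23 libraries of low mitochondrial share that had another such library in their group, it was 0.83, 0.72 and 0.54. Among the 19179 other genes tested, COL4A2 ranked 7 by its r with COL4A1 and COL4A1 ranked 2499 by its r with COL4A2. COL4A4 ranked 12 for COL4A3 and COL4A3 ranked 8 for COL4A4, whereas COL4A6 ranked 3005 for COL4A5 and COL4A5 396 for COL4A6. Without the libraries of high share, the ranks were 6 and 9 for the first pair, 873 and 1435 for the second and 3184 and 364 for the third. The points share libraries, depth and RNA quality, so these values are descriptions. Across pairs, COL4A3 had an r of 0.65 and COL4A4 of 0.62 with COL4A5, the gene of the third chain of their trimer, and of -0.42 and -0.30 with COL13A1. COL4A5 had similar or higher values with genes outside that trimer, 0.73 with COL6A1, 0.66 with COL4A2 and 0.61 with COL5A1. In the 23 libraries of low share these were 0.39, 0.16 and 0.10, against 0.65 with COL4A3 and 0.71 with COL4A4.

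The genes most like each member in these deviations over the 36 libraries were found among all genes tested. For COL4A1 they were PKDCC (r = 0.90), PHLDB1 (0.88) and COL5A1 (0.88), and for COL4A2 TRIM56 (0.98), GATD1 (0.98) and FLYWCH1 (0.98). For COL4A3 they were ABTB3 (0.87), ALDH6A1 (0.86) and XBP1 (0.86), the last a transcription factor of the unfolded protein response, and for COL4A4 RND1 (0.85), HGD (0.85) and ADSS1 (0.81). COL4A5 was most like PTPRU (0.91), ABCC3 (0.90) and OPRL1 (0.89), and COL4A6 most like TMCO3 (0.81), PTGIR (0.79) and RASA4B (0.79). COL13A1 was most like AXL (0.88), a receptor tyrosine kinase, ENSG00000272016 (0.86) and COL17A1 (0.82), the transmembrane collagen of hemidesmosomes. For COL5A1 they were COL4A2 (0.97), FLNA (0.96) and ENSG00000230733 (0.96), for COL6A1 ITGA3 (0.97), PML (0.96) and ITPR3 (0.95), and for COL12A1 DOCK5 (0.90), FAT4 (0.88) and NFIB (0.86). In the 23 libraries of low share the r of COL4A2 with GATD1 was 0.58 and with FLYWCH1 0.52. That of COL4A6 was 0.45 with PTGIR, 0.65 with RASA4B and 0.69 with TMCO3, and that of COL4A1 with COL5A1 was 0.71. By contrast, the r of COL13A1 with AXL was 0.93 and that of COL5A1 with COL4A2 0.92.

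A few other collagen genes rose with IL-1β and none of them fell past both thresholds. Of 34 further collagen genes, 13 had enough reads to be tested, and 3, 1, 3, 1, 0 and 0 of them passed both thresholds at the 6 collections in order, all higher with IL-1β, beside the shares of all genes given above. Their median log2 fold change at day 21 was 0.57, against -0.01 over all genes tested. This list and those that follow were chosen with earlier results of these data known, so their shares and p-values carry no independent support. Values here are means ± SD of 3 libraries, IL-1β first, with the SE of the fold change and the adjusted p of edgeR's quasi-likelihood test. COL17A1 rose at day 21 (4.84 ± 1.08 against 1.31 ± 0.415 CPM, log2 fold change 1.89 ± 0.46, adjusted p = 0.00776). COL1A1, a chain of fibrillar collagen I, rose as well (2.43 ± 0.541 against 1.03 ± 0.209 CPM, log2 fold change 1.24 ± 0.29, adjusted p = 0.00574), though with at most 56 counts per library at that time. COL15A1, a basement membrane zone collagen, passed with at most 13 counts per IL-1β and 2 per control library, too few for a fold change. COL16A1 passed at day 6 only and is named after its values were seen. Without replicate A none of the 13 passed at day 21, where 299 of all 19205 genes then tested did. At day 30 after withdrawal DESeq2's Wald test passed 1 where edgeR passed 0.

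Among genes that modify, secrete or cross-link collagen, 24 of 31 were tested, with a median log2 fold change of 0.21 at day 21. At the 6 collections 2, 3, 2, 2, 0 and 0 passed both thresholds, all higher with IL-1β. Of all genes tested, 2.77%, 4.24%, 4.26%, 1.8%, 0.954% and 0.897% passed in either direction. The 2 genes at day 21 were 8.33% of the 24, against 4.26%. ADAMTS14, a procollagen N-propeptidase, rose at day 21 (6.28 ± 1.29 against 0.751 ± 0.290 CPM, log2 fold change 3.07 ± 0.46, adjusted p = 2.56e-05). PCOLCE2, an enhancer of procollagen C-propeptide removal, rose also (32.0 ± 1.84 against 15.1 ± 1.15 CPM, log2 fold change 1.09 ± 0.14, adjusted p = 4.83e-06). The others that passed were LOXL2 at day 6 and PLOD2 and LOX at day 15, lysine-modifying enzymes named after their values were seen.

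Of 17 genes for the laminins, nidogens and other partners of collagen IV in the basement membrane, 15 were tested. At the 6 collections, 2, 4, 4, 2, 1 and 1 were higher past both thresholds and 1 was lower at day 6, LAMC3, with at most 8 counts per control library. Those at day 21 were 26.7% of the 15, against 4.26% of all genes tested, in a list chosen with earlier results of these data known. The 1 at day 30 after withdrawal was 6.67%, against 0.897%. The median log2 fold change of the list was -0.07 at day 21. LAMB3, a laminin β chain, rose at day 21 (147 ± 38.8 against 22.2 ± 1.48 CPM, log2 fold change 2.73 ± 0.36, adjusted p = 4.78e-06). NID2, nidogen-2, which links laminin to collagen IV, rose at day 21 (8.42 ± 0.992 against 2.61 ± 0.302 CPM, log2 fold change 1.69 ± 0.36, adjusted p = 0.00211). It was the 1 gene that passed at day 30 after withdrawal (4.66 ± 0.790 against 1.39 ± 1.08 CPM, log2 fold change 1.69 ± 0.38, adjusted p = 0.0172), a call that did not hold when replicate A, B or C was left out. SPARC, a collagen-binding matricellular protein, rose at day 21 (1.06 ± 0.329 against 0.179 ± 0.106 CPM, log2 fold change 2.49 ± 0.61, adjusted p = 0.00850) with at most 33 counts per library. Of the 7 collagen receptor genes, 1, 2, 2, 0, 0 and 0 passed, all higher, and the median log2 fold change over the 7 was 0.06 to 0.70 across the time points. The 2 at day 21 were 28.6% of the 7, against 4.26% of all genes tested. ITGA2 rose at day 21 (80.3 ± 12.5 against 33.4 ± 5.60 CPM, log2 fold change 1.26 ± 0.23, adjusted p = 4.84e-04), as did ITGA1 (25.3 ± 2.10 against 12.3 ± 0.276 CPM, log2 fold change 1.05 ± 0.31, adjusted p = 0.0385), the α subunits of collagen-binding integrins. Neither passed at day 21 without replicate A.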

How the data were processed

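The values the authors deposited are counts of reads per Ensembl gene, 1 table for each of 36 libraries of A549 RNA, not normalized. Per the labels and the submitters' processing notes, stranded mRNA libraries were made with a KAPA kit, and the tools named are bcl2fastq 2.17, TopHat2 2.0.14, Bowtie2 2.2.5 and HTSeq 0.6.1 with GRCh37. The strand setting and the annotation release are not given in the sources used here. HTSeq's summary lines for reads on no gene (8.48% to 18.6% of all reads) and ambiguous reads (2.62% to 4.18%) were left out of library sizes.

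Groups came from the sample titles. With R 4.3.3 and edgeR 4.0.16, genes were kept by filterByExpr (19180 of 39471 with any count), scaled by TMM, and fitted by the quasi-likelihood model with 12 groups (24 residual degrees of freedom). P-values were adjusted by Benjamini-Hochberg over all genes tested, and a gene passed both thresholds if its adjusted p was under 0.05 and its fold change over 2. The script was tested on simulated counts. CPM use the TMM-scaled library size, and log2 CPM a prior count of 2. CPM per kb divide by the union of a gene's exons in GENCODE v44lift37, to which 55665 of 63677 genes were matched; PECAM1 was the 1 listed symbol without a match. Python 3.11.15 was used for sequences and figures.

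The members and gene lists were chosen with earlier results of these data known, and so was the share of 10% that sets the libraries of high mitochondrial share apart. All 10 members are named, and of each list up to 6 genes past both thresholds at day 21 or at day 30 after withdrawal with the same sign in all 3 same-letter pairs, by the size of the log2 fold change at day 21. Alternatives were DESeq2 1.42.0, other scalings and filters, separate fits, leaving out replicates or libraries, and the replicate block. Whether same-letter control and IL-1β libraries deviated together was judged by r over 0.1 in all 3 pairs. This held at day 21 (0.20 to 0.26) and at day 30 after withdrawal (0.31 to 0.46). At the other collections it did not hold in all pairs, and r was -0.34 at its lowest. The pairing comes from the letters in the titles, and libraries of different letters were not compared. Both replicate B libraries at day 30 after withdrawal have a high mitochondrial share (23.2% and 12.2%), whose part in r was not tested. No library was left out of the main results, and no 2 libraries held identical counts. One further gene of the basement membrane list that passed is not reported here.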

Additional observations from a re-analysis of the deposited data

Results flagged for a closer look

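COL6A1, a chain of collagen VI, stood apart from its controls in opposite directions at different collections. At day 15 of exposure all 3 IL-1β libraries were below all 3 control libraries (10.1, 9.06 and 3.72 CPM against 10.7, 11.1 and 11.7 CPM in replicates A, B and C). The log2 fold change was -0.53 ± 0.42 (SE), and the nearest libraries were at 10.1 and 10.7 CPM. At day 6 after withdrawal all 3 formerly exposed libraries were above all control libraries, with a log2 fold change of 1.19 ± 0.42. The same held at day 30, with 1.46 ± 0.42. The log2 fold change at day 6 after withdrawal was 1.73 above that at day 15, and at day 30 after withdrawal 2.00 above it. These differences were not tested, and how many of all genes stand apart from their controls in this way was not counted. Among the libraries involved, IL-1β replicate C at day 15 (3.72 CPM) and control replicate B at day 30 after withdrawal (2.83 CPM) have a high mitochondrial share and are the lowest of all 36 in COL6A1. Without the libraries of high share the log2 fold changes were -0.22 at day 15, 1.22 at day 6 after withdrawal and 0.99 at day 30 after withdrawal. The value at day 6 after withdrawal then rested on a single control library. Groups of 3 libraries were not searched for single libraries that stand apart.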

How the results depend on the processing

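Of 694 alternative values of the members' log2 fold changes, 681 moved by less than the standard error of the main value and 13 by at least that. None that had been past both thresholds changed sign. The numbers of members past both thresholds are given as days 6, 15 and 21 of exposure, then days 6, 15 and 30 after withdrawal, where they were 4, 5, 5, 4, 1 and 1. With the replicate letter as a replicate block they were 4, 5, 5, 4, 4 and 4, and the block changed no other count by over 1.5 times. Of all genes, 590, 912, 889, 381, 243 and 218 passed with the block. With the high mitochondrial share as a covariate the members numbered 4 and 4 at days 15 and 30 after withdrawal, where 271 and 314 of all genes passed. Without the libraries of high share a single control library was left at days 6 and 15 after withdrawal, so no count is given there. With total counts only the members numbered 2 and 3 at days 6 and 15 (472 and 707 of all genes). With no filter they numbered 2 at day 15 after withdrawal (157 of all genes). With DESeq2's Wald test they numbered 2 at day 15 and 4 at day 30 after withdrawal (215 and 214 of all genes). With at least 10 counts in every sample, which tests 6 members, they numbered 0, 1, 1, 1, 1 and 0. Of the 13054 genes tested there, 304, 443, 448, 188, 99 and 92 passed. With each collection fitted alone the members numbered 3 at day 15 and 0, 0 and 0 after withdrawal. Of all genes, 424 passed at day 15 and 1, 2 and 0 after withdrawal. Leaving out a replicate gave ranges of 1 to 3, 2 to 4, 0 to 4, 0 to 4, 0 to 2 and 0 to 2 members. The counts over all genes in these fits are given above with the head-to-head pairs. In untreated cells the count of members stayed at 0 under every alternative run.

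At day 21, where 3 other collagens, 2 processing genes, 4 basement membrane partners and 2 receptors passed, at least 10 counts in every sample gave 0, 1 and 2 of the first 3 lists, the covariate 5 other collagens and 1 receptor, and leaving out a replicate 0 to 3 other collagens, 2 to 3 partners and 0 to 1 receptors. At day 30 after withdrawal, where 0 other collagens and 1 partner passed, DESeq2 gave 1 and the covariate 2 other collagens, leaving out a replicate 0 to 1 other collagens and 0 partners, and the 10-count filter, the separate fit and the fit without high-share libraries 0 partners. The causes were not tested. COL4A6, with 0 to 75 counts per library, and the other minor chains are limited by depth.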
